A study of Arabidopsis thaliana with 60 samples.

Results

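The NADPH oxidases of Arabidopsis thaliana, named RESPIRATORY BURST OXIDASE HOMOLOGUE (RBOH), were followed through the response to an immune receptor fragment. The genes described are the 8 chosen by name, RBOHA, RBOHB, RBOHC, RBOHD, RBOHE, RBOHF, RBOHG and RBOHI, out of 32678 genes listed in the count tables. The family has 2 further genes, RBOHH and RBOHJ, which were counted only where the whole family was summed.

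Leaves of 4-week-old plants of accession Col-0 were infiltrated with 1 µM dexamethasone, and poly(A) RNA was sequenced at 0, 2, 4, 6 and 8 h from 3 biological replicates per line and time, each made of 6 leaf discs taken from 6 plants. There were 4 lines, giving 20 groups and 60 libraries. In the wild-type background, one line (MLACC) expressed the coiled-coil domain of the barley nucleotide-binding leucine-rich repeat receptor MLA, fused to mYFP, from a dexamethasone-inducible promoter (DEXp:MLACC-mYFP), and its control (mYFP) expressed mYFP alone from the same promoter (DEXp:mYFP). In a sextuple mutant, called ppsdes, one line carried DEXp:MLACC-mYFP and the control was the mutant without a transgene. All plants of a background shared the same background alleles, and all plants of all lines received dexamethasone. The alleles of ppsdes are dde2-2, in jasmonate synthesis, ein2-1, in ethylene signalling, sid2-2, in pathogen-induced salicylic acid synthesis, pad4-1 and sag101-2, in lipase-like immune regulators, and pen2-1, in a myrosinase of indole glucosinolate breakdown.

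Several features of these lines limit the comparisons. Each transgenic line was chosen for marker segregation that the study read as that of a single insertion. The MLACC line in ppsdes came from transforming mutant plants, so the MLACC lines of the backgrounds carry separate insertions. The study found less of the fusion protein in the mutant than in the wild type. With MLACC it detected cell death from 4 h after induction, by ion leakage and trypan blue staining. The mutant control carried no mYFP transgene. The libraries of each background were counted in a table of their own, so background and table cannot be told apart. The barley transgene itself was not analysed here.

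RBOH proteins span the plasma membrane and pass electrons from NADPH in the cytosol to oxygen outside the cell. The superoxide they make is turned into hydrogen peroxide, which acts as a signal, stiffens cell walls and harms microbes. Calcium binding to EF-hands in the N-terminal region, and phosphorylation of that region by calcium-dependent and receptor-associated kinases, switch the enzymes on. In leaves, RBOHD makes most of the burst that follows pathogen recognition, and RBOHF acts with it in defence and in abscisic acid-triggered closing of stomata. RBOHC, also called ROOT HAIR DEFECTIVE 2, drives root hair growth, RBOHB acts in seeds, RBOHE in the anther tapetum, and RBOHH and RBOHJ in pollen tubes.

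The 8 genes lie on chromosomes 1, 4 and 5 of TAIR10.1. RBOHB (AT1G09090, chr1:2932739-2936586), RBOHE (AT1G19230, chr1:6643942-6649375) and RBOHF (AT1G64060, chr1:23769774-23776984) are on the plus strand of chromosome 1. RBOHI (AT4G11230, chr4:6840473-6845627) and RBOHG (AT4G25090, chr4:12878667-12883805) are on the minus strand of chromosome 4. On chromosome 5, RBOHD (AT5G47910, chr5:19397041-19402061) is on the plus strand, and RBOHA (AT5G07390, chr5:2335895-2339913) and RBOHC (AT5G51060, chr5:20757199-20762461) are on the minus strand. The deposited values are whole-gene counts, so exons and isoforms were not separated.

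The 300 bases before the annotated start of RBOHC, RBOHD and RBOHF are printed because these 3 genes carried nearly all RBOH reads and were higher in MLACC leaves. They are given 5′ to 3′ on the strand of the gene, from the RefSeq assembly TAIR10.1, with TTGACT, one of the W-box cores bound by WRKY transcription factors, in capitals. The other core searched, on both strands as well, was TTGACC.
RBOHC: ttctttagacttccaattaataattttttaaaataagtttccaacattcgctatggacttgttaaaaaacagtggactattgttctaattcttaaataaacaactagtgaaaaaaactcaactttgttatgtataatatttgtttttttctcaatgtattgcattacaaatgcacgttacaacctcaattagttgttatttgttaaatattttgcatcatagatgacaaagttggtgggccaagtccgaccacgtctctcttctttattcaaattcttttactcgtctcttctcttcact
RBOHD: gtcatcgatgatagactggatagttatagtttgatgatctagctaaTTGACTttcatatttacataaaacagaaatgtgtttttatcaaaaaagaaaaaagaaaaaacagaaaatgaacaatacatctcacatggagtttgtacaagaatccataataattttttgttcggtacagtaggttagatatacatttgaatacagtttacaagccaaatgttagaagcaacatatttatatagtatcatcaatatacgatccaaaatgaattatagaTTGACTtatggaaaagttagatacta
RBOHF: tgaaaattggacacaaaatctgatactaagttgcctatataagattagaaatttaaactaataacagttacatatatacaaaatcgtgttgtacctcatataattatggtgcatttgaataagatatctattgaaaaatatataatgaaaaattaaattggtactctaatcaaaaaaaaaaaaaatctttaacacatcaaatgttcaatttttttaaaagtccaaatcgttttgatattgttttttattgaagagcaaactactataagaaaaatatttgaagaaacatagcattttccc
The windows are chr5:20762462-20762761 on the minus strand for RBOHC, chr5:19396741-19397040 on the plus strand for RBOHD and chr1:23769474-23769773 on the plus strand for RBOHF. RBOHD held TTGACT at positions -254 and -26 from the annotated gene start. RBOHC and RBOHF held neither core on either strand. Of the other members, RBOHA, RBOHB and RBOHG each held TTGACC in the same window, at -128, -225 and -141, and RBOHE and RBOHI held neither. Among 31911 windows of the same length before annotated genes, 32.1% held one core or both. Calmodulin-binding CAMTA factors bind a core of which CGCG and CGTG are forms. CGCG was in the window of RBOHA, at -138, and in 12.2% of all windows. CGTG, which was added after the values had been seen, was in RBOHC at -128 and -50, in RBOHF at -216, in RBOHA, RBOHB and RBOHE, and in 49.97% of all windows. RBOHD, RBOHG and RBOHI did not hold it. The longer form CGCGTT was in none of the 8 and in 3.12% of all windows. The core TGACG, bound by TGA factors, was in none of the 8 and in 20.9% of all. The G-box CACGTG was in none of the 8 and in 6.53% of all. CGCGTT overlaps CGCG and CACGTG overlaps CGTG, and all were searched on both strands. These matches describe the letters only.

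Library depth was similar in both backgrounds, with 18.2 M to 25.8 M gene counts per wild-type library and 14.1 M to 26.0 M per ppsdes library. Values below are counts per M gene counts (CPM) on one scale over the 60 libraries, and CPM per kilobase of exon (RPKM) wherever genes are compared with each other. A gene was called changed at an adjusted p below 0.01 with a log2 fold change beyond 1 in either direction, in edgeR's quasi-likelihood test adjusted over all genes tested. In 5 libraries the expression profile was nearer to another time of the same line than to their own group. These were replicate 3 of mYFP at 2 h, replicate 1 of MLACC at 4 h, replicate 3 of MLACC at 8 h, and, at 6 h, the first replicate of MLACC ppsdes and of its control. Values without these 5 are given with the results. As a check of the mutant, transcripts of DDE2, EIN2, SID2 and SAG101 were called lower in ppsdes than in mYFP leaves at 0 h (log2 difference -4.67, -1.12, -4.91 and -1.69), whereas PEN2 (-2.01) and PAD4 (-0.36) were not called.

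Before induction, RBOHD and RBOHF accounted for almost all RBOH transcripts. In the mYFP line at 0 h, RBOHD stood at 15.6 ± 6.05 RPKM and RBOHF at 6.11 ± 0.717 RPKM (SD, n = 3). RBOHD was above RBOHF, per length, in every one of the 60 libraries, with a lowest ratio of 1.36. RBOHE and RBOHI followed at 0.0645 ± 0.0469 and 0.0715 ± 0.0241 RPKM, which did not differ beyond their spread, and RBOHC was at 0.00606 ± 0.0105 RPKM. The remaining members were barely counted over the whole series. RBOHG had 85 reads in 60 libraries, RBOHA 25 and RBOHB 5, beside 193137 for RBOHD. RBOHH had 7 and RBOHJ 5.

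None of the 8 genes was called different between the resting ppsdes control and the resting mYFP line, where 0.351% of 19929 genes were called. RBOHD was at 78.3, 110 and 93.8 CPM in ppsdes and at 77.7, 34.2 and 57.1 CPM in mYFP, a log2 difference of 0.74 ± 0.46 (SE, adjusted p = 0.562). The lowest ppsdes library lay just above the highest mYFP library. RBOHF was nearly level, at 25.3, 26.2 and 25.8 CPM in ppsdes and 27.5, 23.8 and 21.8 CPM in mYFP (0.08 ± 0.23). Nor was a member called between the MLACC and control lines of either background at 0 h, where 0.00509% of genes were called in the wild type and 0.0104% in ppsdes.

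**Figure D1:**
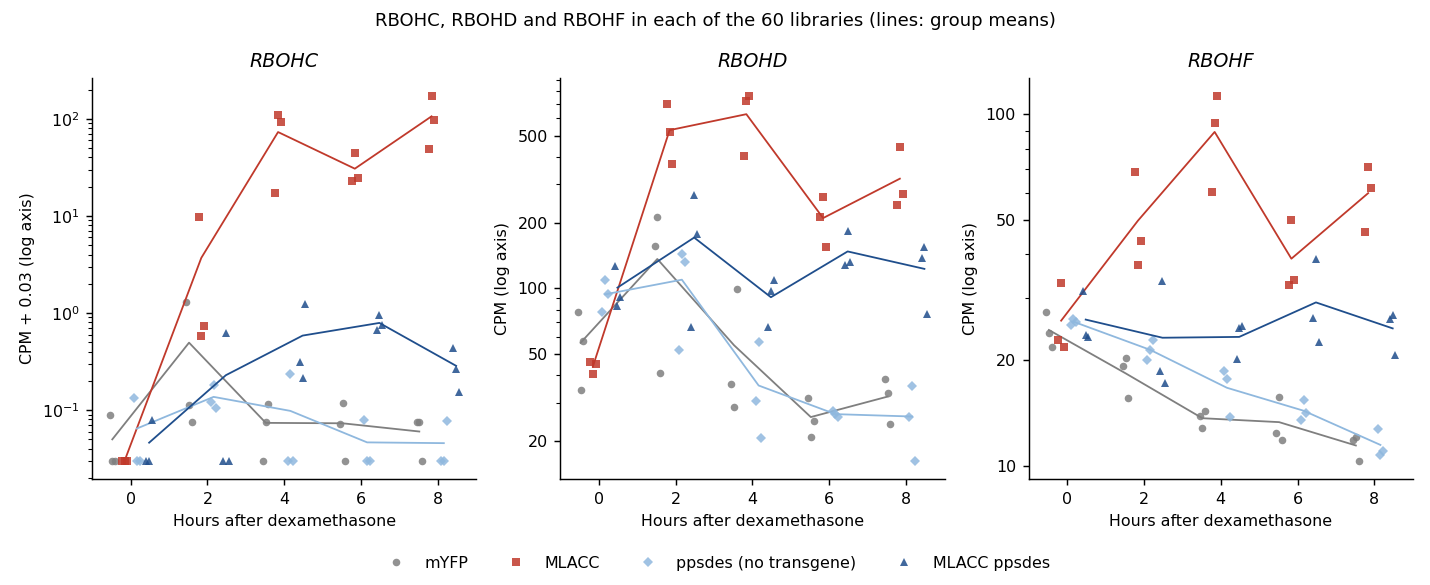
RBOHC, RBOHD and RBOHF in the 60 libraries, as CPM on log axes (0.03 added for RBOHC so that zeros can be drawn) against hours after dexamethasone; each point is 1 library and the lines join group means. RBOHC stood at 17.2 to 172 CPM in MLACC leaves from 4 h on, and at no more than 1.27 CPM in any control library and 1.2 CPM in any MLACC ppsdes library.

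In wild-type leaves every call of a member with MLACC was towards a higher level. After the filter on low counts, 5 of the 8 could be tested (RBOHC, RBOHD, RBOHE, RBOHF and RBOHI). Of these, 2 were called higher at 2 h, 4 at 4 h, 4 at 6 h and 5 at 8 h. Genes called higher made up 4.14%, 21.4%, 18.8% and 23.1% of the 19654 genes tested at these times, and genes called in either direction 4.26%, 39.0%, 29.3% and 45.8%. The median log2 fold change of the 5 was 1.99, 2.75, 2.49 and 3.03, beside 0.01, 0.02, -0.02 and 0.02 over all genes. Tested members had to pass the filter, which RBOHC, RBOHE and RBOHI did through the MLACC libraries.

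RBOHD, the burst oxidase of leaves, was already higher at 2 h. Its level was 702, 520 and 369 CPM in the 3 MLACC libraries and 156, 212 and 40.9 CPM in the mYFP libraries. All MLACC libraries lay above all controls, and the lowest control was the replicate that stood near 4 h. The log2 fold change was 1.99 ± 0.49 (SE, adjusted p = 0.00857). The call at 2 h depended on single libraries and settings. It was lost without mYFP replicate 1 (adjusted p = 0.0284), mYFP replicate 3 (1.52, adjusted p = 0.0509), MLACC replicate 1 (adjusted p = 0.0589) or MLACC replicate 2 (adjusted p = 0.0176), and without the 5 libraries named above the change was 1.54 (adjusted p = 0.0294). It was also lost with only the 6 libraries compared (1.97, adjusted p = 0.0944) and after subtraction of the difference at 0 h (2.36, adjusted p = 0.0810).

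RBOHD had its highest mean at 4 h, with 404, 718 and 761 CPM in MLACC leaves and 36.6, 28.6 and 99.5 CPM in mYFP leaves. The change was 3.55 ± 0.52 (adjusted p = 5.26e-06), and 3.73 without the 5 libraries. At 6 h the MLACC libraries held 212, 263 and 155 CPM and the controls 31.6, 20.8 and 24.8 CPM (3.05 ± 0.51, adjusted p = 3.51e-05). At 8 h they held 240, 442 and 271 CPM against 38.6, 33.2 and 24.0 CPM (3.33 ± 0.52, adjusted p = 6.42e-06). MLACC and control libraries did not overlap at 4, 6 or 8 h. No change of the RBOHD effect between consecutive times was called, the test giving 1.56 ± 0.67 from 2 to 4 h (adjusted p = 0.0767), -0.51 ± 0.67 from 4 to 6 h and 0.29 ± 0.67 from 6 to 8 h. Of all genes, 9.18%, 0.402% and 0.0509% were called in these steps.

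RBOHF, which works beside RBOHD in defence, was called higher with MLACC from 2 h on. At 0 h it stood at 22.9, 33.1 and 21.8 CPM in MLACC leaves and 27.5, 23.8 and 21.8 CPM in mYFP leaves. Its level at 2 h was 68.7, 37.2 and 43.7 CPM in MLACC leaves against 19.2, 20.2 and 15.6 CPM in mYFP leaves, and the groups did not overlap. The log2 fold change was 1.48 ± 0.24 at 2 h (adjusted p = 0.000281), a call lost with only the 6 libraries compared (1.45, adjusted p = 0.0370) and after subtraction of the difference at 0 h (1.39, adjusted p = 0.0334). At 4 h RBOHF reached 60.4, 94.3 and 113 CPM, whereas the controls were at 13.9, 12.8 and 14.4 CPM (2.75 ± 0.25, adjusted p = 1.54e-08). At 6 h it was at 32.8, 49.96 and 33.9 CPM against 12.4, 15.7 and 11.9 CPM (1.56 ± 0.24, adjusted p = 1.39e-05), and at 8 h at 46.4, 71.0 and 61.8 CPM against 11.9, 12.1 and 10.4 CPM (2.39 ± 0.25, adjusted p = 3.62e-08). Of the 5 tested members, RBOHF in the wild type had the smallest standard errors. Its effect grew between 2 and 4 h by 1.27 ± 0.34 (adjusted p = 0.00883). It was lost without any one of 9 of the 12 libraries (adjusted p 0.0150 to 0.0369, changes of 1.06 to 1.29), namely replicates 1 and 2 of mYFP and 2 and 3 of MLACC at 2 h, and replicates 1, 2 and 3 of mYFP and 2 and 3 of MLACC at 4 h. From 4 to 6 h the effect differed by -1.19 ± 0.34, which was not called (adjusted p = 0.0608), but it was called without MLACC replicate 1 at 4 h (-1.41, adjusted p = 0.00507).

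RBOHC, the root hair oxidase, had almost no reads in controls and many in MLACC leaves. At 0 h the MLACC libraries had 0 reads each, which allows up to 3 counts per library. At 2 h they had 178, 13 and 14 reads, or 9.76, 0.556 and 0.698 CPM, and the mYFP libraries had 33, 2 and 1 reads. Replicate 1 was the highest of its group in both lines, and the groups overlapped. The log2 change of 2.90 ± 1.01 at 2 h was not called (adjusted p = 0.0709). It was 0.38 without MLACC replicate 1 and 5.70 without mYFP replicate 1, neither called.

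From 4 h on, RBOHC in MLACC leaves was far above the controls. At 4 h the MLACC libraries were at 17.2, 108 and 93.8 CPM, or 4322 reads in all, against 3 reads in the 3 mYFP libraries. The ratio of these pooled reads, each per library size, was 1615 (95% exact interval 552 to 7835, which covers counting error only). At 6 h, 22.8, 44.5 and 24.6 CPM (2463 reads) faced 3 control reads, a ratio of 687 (235 to 3336). At 8 h, 48.7, 172 and 97.5 CPM (7026 reads) faced 2 control reads, a ratio of 3203 (886 to 26454). The fitted log2 changes, which depend on the prior count added where controls are near 0, were 10.57 ± 1.39, 9.28 ± 1.38 and 11.51 ± 1.45 (adjusted p = 2.01e-06, 1.19e-05 and 7.32e-07). After subtraction of the difference at 0 h, where both lines had almost no reads, they were 12.56, 11.27 and 13.50 and none was called (adjusted p = 0.258, 0.308 and 0.224). The MLACC libraries varied widely among themselves at each of these times, and the lowest at 4 h was the replicate nearest to 6 h. The growth of the effect from 2 to 4 h (7.67 ± 1.91, adjusted p = 0.00688) rested on replicate 1 of mYFP at 2 h, without which it was 4.83 (adjusted p = 0.312). It was also lost, with adjusted p of 0.0125 to 0.0190, without replicates 1, 2 or 3 of mYFP at 4 h, replicates 2 or 3 of MLACC at 2 h, or replicates 2 or 3 of MLACC at 4 h.

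The markers of root hair cells were near 0 in the same leaves. EXPA7, COBL9 and LRX1 together summed to 0.444 to 0.661 CPM in MLACC and 0.598 to 1.11 CPM in mYFP leaves at 4 h, EXPA7 being at 0 in both, and to 0 to 0.483 CPM in MLACC and 0 to 0.103 CPM in mYFP leaves at 8 h. Markers of leaf cell types did move. The summed level of 5 mesophyll markers was 43706 to 47564 CPM in mYFP and 19604 to 28567 CPM in MLACC at 4 h, and 37142 to 42397 CPM against 6477 to 17183 CPM at 8 h, with 3 and then 5 of the 5 called lower. The 4 epidermal markers summed to 254 to 377 CPM in mYFP and 63.3 to 198 CPM in MLACC at 4 h (1 of 4 called lower), and to 389 to 425 CPM against 15.8 to 148 CPM at 8 h (4 of 4 called lower). The 6 guard cell markers summed to 74.2 to 79.4 CPM in mYFP and 70.6 to 83.6 CPM in MLACC at 8 h (1 called higher and 3 lower), and the 4 phloem markers to 344 to 396 CPM against 354 to 388 CPM (1 called lower). At 4 h the guard cell markers summed to 59.0 to 66.0 CPM in mYFP and 52.9 to 57.3 CPM in MLACC, without overlap. The phloem markers then summed to 299 to 343 CPM in mYFP and 289 to 311 CPM in MLACC, which overlapped. Of all genes, 17.6% were called lower at 4 h, and at 8 h 45.8% were called either way and 23.1% higher. None of the mesophyll, epidermal, guard cell or phloem markers was at 0 in any group. In leaf discs, fewer cells of a type and less RNA per cell cannot be told apart, and the part of these shifts in the RBOH values was not tested.

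RBOHE and RBOHI, both with at most 59 reads in a library, were also higher with MLACC. RBOHE had 20, 41 and 25 reads in the MLACC libraries at 4 h and 6, 13 and 4 in the controls (log2 change 2.12 ± 0.61, adjusted p = 0.00375). It had 21, 51 and 28 reads against 8, 4 and 3 at 6 h (2.49 ± 0.64, adjusted p = 0.00208), and 42, 59 and 31 against 7, 5 and 3 at 8 h (3.03 ± 0.63, adjusted p = 0.000193). MLACC libraries were above all controls at each of these times. The call at 4 h was lost without mYFP replicate 1 (adjusted p = 0.0200), mYFP replicate 3 (0.0249) or MLACC replicate 2 (0.0317), and that at 6 h without mYFP replicate 2 (0.0104), mYFP replicate 3 (0.0126) or MLACC replicate 2 (0.0182). Subtraction of the difference at 0 h ended both calls (adjusted p = 0.0471 and 0.0387), and the 6 libraries alone ended that at 4 h (0.0233). At 2 h RBOHE had 2, 6 and 1 reads against 0, 1 and 0, and was not called (2.98 ± 1.31, adjusted p = 0.162).

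RBOHI had 16, 32 and 15 reads in MLACC and 1, 2 and 5 in mYFP at 8 h, a log2 change of 2.84 ± 0.74 (adjusted p = 0.00151). The groups did not overlap, yet the call was lost without mYFP replicate 1 (adjusted p = 0.0113) or MLACC replicate 2 (0.0144), with only the 6 libraries compared (0.0127) and after subtraction of the difference at 0 h (0.0270). At 4 h the reads were 5, 12 and 25 against 2, 4 and 7 (1.87 ± 0.70, adjusted p = 0.0217), and at 6 h 9, 32 and 19 against 2, 6 and 4 (2.06 ± 0.69, adjusted p = 0.0133), neither called. Both were called without replicate 1 of MLACC of that time (2.29, adjusted p = 0.00550, and 2.41, adjusted p = 0.00636) and without the 5 libraries nearest another time (2.22, adjusted p = 0.00737, and 2.05, adjusted p = 0.00914).

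RBOHA, RBOHB and RBOHG did not pass the filter and were not tested. RBOHA had 2, 1 and 6 reads in the MLACC libraries at 4 h and 4, 3 and 0 at 6 h, where all mYFP libraries had 0, so that the groups overlapped at 6 h. By the exact 95% interval of the pooled ratio, which covers counting error only, these are at least 2.21-fold and 1.21-fold higher. RBOHG had 4, 4 and 6 reads in MLACC at 4 h against 1, 0 and 2 in mYFP, a pooled ratio of 5.23 with a counting interval of 1.46 to 28.4. It had 3, 2 and 2 reads at 6 h and 3, 7 and 1 at 8 h, where all controls had 0, by the same interval at least 1.21-fold and 2.29-fold higher. RBOHB had 1 read in each of 5 libraries and none in the other 55. No change of RBOHB was detectable at this depth.

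**Figure D2:**
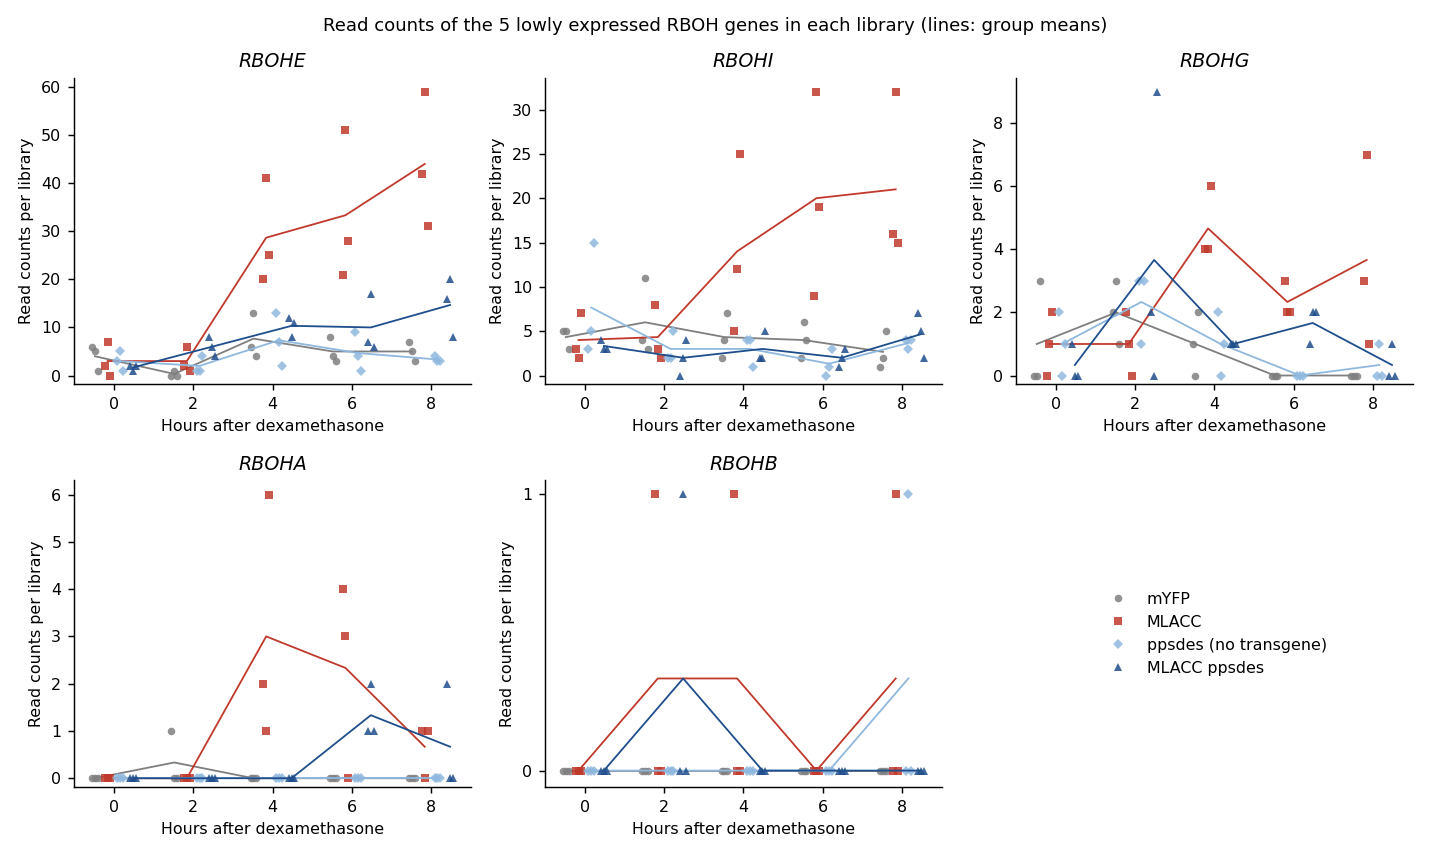
Read counts of RBOHE, RBOHI, RBOHG, RBOHA and RBOHB in each library against hours after dexamethasone, 1 point per library, lines joining group means. RBOHE reached 59 reads and RBOHI 32 in MLACC leaves at 8 h, RBOHG stayed at 9 or fewer and RBOHA at 6 or fewer in every library, and RBOHB never exceeded 1.

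Reads of these low members could in part belong to other genes. RBOHE shares 133 bases with AT1G19240 on the opposite strand, RBOHA 169 with AT5G07380, RBOHB 59 with AT1G09100 and RBOHG 37 with AT4G25080, and the libraries did not keep strand. AT1G19240 was at 2.83 to 15.1 CPM over the 60 libraries, with a median of 6.29 CPM, and its log2 change with MLACC in the wild type was 1.41 ± 0.21 at 4 h and 1.20 ± 0.21 at 8 h, both called. The part of these reads in the RBOHE values was not tested. Within the family, protein identity of the pairs ran from 45.4% to 83.5% with a median of 51.5%. RBOHC and RBOHG were 73.3% identical and their coding sequences shared an exact run of at most 26 bases. The library with most RBOHG reads, replicate 3 of MLACC ppsdes at 2 h, had 9 RBOHG reads and 0 RBOHC reads. In MLACC leaves of the wild type, 14 and 11 RBOHG reads stood beside 4322 and 7026 RBOHC reads at 4 and 8 h. Whether RBOHC reads were counted as RBOHG was not tested.

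In ppsdes, calls of members began at 6 h. Of 4 members tested (RBOHI did not pass the filter there), none was called at 2 or 4 h, 3 were called higher at 6 h and 2 at 8 h. Genes called higher made up 0.380%, 2.08%, 10.5% and 9.00% of 19216 genes at 2, 4, 6 and 8 h, and genes called either way 0.396%, 2.22%, 14.6% and 12.4%. The median log2 change of the 4 was 0.79, 0.93, 1.81 and 2.09, beside 0.01, -0.02, -0.02 and -0.07 over all genes. RBOHC and RBOHE passed the filter through the MLACC libraries, so the median describes these 4 genes only.

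RBOHD in ppsdes was at 66.4, 268 and 178 CPM with MLACC and 52.4, 144 and 132 CPM without at 2 h (0.65 ± 0.43, adjusted p = 1.00). At 4 h it was at 66.8, 97.0 and 110 CPM against 30.5, 56.6 and 20.6 CPM (1.36 ± 0.43, adjusted p = 0.0563). The groups overlapped at 2 h but not at 4 h, and neither difference was called. At 6 h the MLACC libraries held 127, 184 and 132 CPM and the controls 27.5, 26.5 and 25.7 CPM, a change of 2.49 ± 0.45 (adjusted p = 0.000160). At 8 h 137, 155 and 76.0 CPM stood against 25.6, 35.8 and 16.2 CPM (2.22 ± 0.45, adjusted p = 0.000581), a call lost after subtraction of the difference at 0 h (2.09, adjusted p = 0.0227). Without the libraries nearest another time, RBOHD changed by 2.62 at 6 h (adjusted p = 0.00128). At 0 h RBOHD was at 127, 83.4 and 91.7 CPM with MLACC and 78.3, 110 and 93.8 CPM without. With MLACC its levels at 8 h overlapped those at 0 h, while the controls at 8 h were lower than at 0 h.

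RBOHF in ppsdes was called higher with MLACC than without from 6 h on. At 0 h the MLACC libraries held 31.5, 23.6 and 23.2 CPM and the controls 25.3, 26.2 and 25.8 CPM. With MLACC, RBOHF at 6 and 8 h overlapped its level at 0 h, while the controls fell below theirs. It was at 18.6, 33.6 and 17.3 CPM with MLACC against 20.1, 21.4 and 22.8 CPM at 2 h (0.12 ± 0.21), and at 20.2, 24.7 and 25.04 CPM against 18.7, 17.7 and 13.8 CPM at 4 h (0.50 ± 0.21, adjusted p = 0.162). It was called at 6 h, with 26.5, 38.7 and 22.5 CPM against 13.5, 15.4 and 14.2 CPM (1.04 ± 0.21, adjusted p = 0.000543), and at 8 h, with 26.3, 26.9 and 20.7 CPM against 12.7, 10.7 and 11.03 CPM (1.07 ± 0.22, adjusted p = 0.000586). Both values lay just beyond the fold threshold. Without MLACC replicate 2 of the same time the change was 0.78 at 6 h (adjusted p = 0.00898) and 1.00 at 8 h (adjusted p = 0.00435), no longer beyond it. Subtraction of the difference at 0 h ended both calls (1.00 and 1.02, adjusted p = 0.0201 and 0.0235), and the 6 libraries alone ended that at 6 h (adjusted p = 0.0108). No member was called for a change of its effect between consecutive times in ppsdes, where 0.0312%, 0.406% and 0% of genes were called from 2 to 4, 4 to 6 and 6 to 8 h.

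RBOHC in ppsdes never exceeded 1.2 CPM. At 6 h the MLACC libraries had 15, 15 and 17 reads and the controls 1, 0 and 0, a pooled ratio of 44.7 (counting interval 7.64 to 1803). The fitted change of 5.10 ± 1.39 was called (adjusted p = 0.00513), but not without control replicate 1 (0.0135), 2 (0.0255) or 3 (0.0223), MLACC replicate 2 (0.0168) or 3 (0.0108), nor without the libraries nearest another time (7.16, adjusted p = 0.0147) or after subtraction of the difference at 0 h (5.94, adjusted p = 0.172). At 4 h the reads were 7, 5 and 32 against 0, 4 and 0 (pooled ratio 9.36, 3.41 to 35.9), and at 8 h 10, 5 and 3 against 0, 0 and 1 (16.5, 2.61 to 688). Neither was called (adjusted p = 0.0964 and 0.0728). RBOHE in ppsdes had 16, 20 and 8 reads against 4, 3 and 3 at 8 h, which did not overlap but were not called (1.97 ± 0.67, adjusted p = 0.0244). RBOHI had 7, 5 and 2 reads with MLACC and 4, 3 and 4 without at 8 h, a pooled ratio of 1.17 (0.493 to 2.84).

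Marker levels moved with MLACC in ppsdes too. The mesophyll markers summed to 50753 to 57270 CPM in the controls and 28324 to 45196 CPM in MLACC ppsdes at 6 h, with none of 5 called. The guard cell markers summed to 86.2 to 94.8 CPM in the controls and 25.5 to 44.7 CPM in MLACC ppsdes, with 4 of 6 called lower, and the epidermal markers to 300 to 379 CPM against 185 to 256 CPM, with 1 of 4 called lower. The root hair markers summed to at most 0.3003 CPM in either line at 6 h. Of all genes, 4.13% were called lower at 6 h in ppsdes. None of the mesophyll, guard cell or epidermal markers was at 0. The part of these shifts in the RBOH values was not tested.

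**Figure D3:**
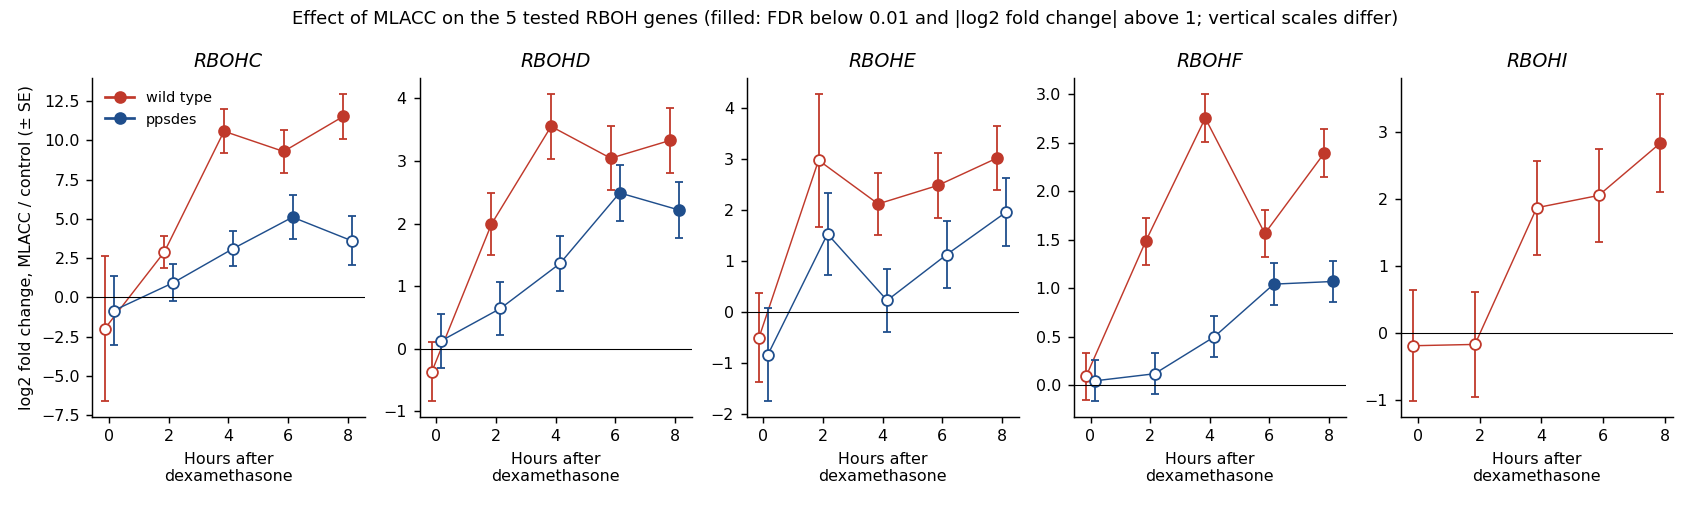
Log2 fold change of MLACC over its control (± SE, edgeR, 3 libraries per group) against hours after dexamethasone for the 5 tested members, in wild type and in ppsdes; filled points passed an adjusted p below 0.01 and a log2 change beyond 1, and vertical scales differ between panels. RBOHF was called from 2 h on in the wild type and from 6 h on in ppsdes, where it stayed near 1.

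Whether the effect of MLACC differed between backgrounds was tested directly, as the effect in ppsdes minus that in the wild type. RBOHF and RBOHD were called at 4 h, in the direction of a smaller effect in ppsdes, as were 10.6% of 19929 genes, and 20.7% were called either way. The difference was -2.22 ± 0.32 for RBOHF (adjusted p = 2.06e-06) and -2.17 ± 0.65 for RBOHD (adjusted p = 0.00731). For RBOHD it was lost without any one of 7 of the 12 libraries (adjusted p 0.0140 to 0.0464), namely replicates 1 and 2 of mYFP, 2 and 3 of MLACC, 2 of the ppsdes control and 1 and 2 of MLACC ppsdes, with values of -1.68 to -2.22. For RBOHF it held without any one library.

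At 8 h RBOHF alone was called (-1.28 ± 0.32, adjusted p = 0.00156), where 8.61% of genes were called in this direction and 19.9% in either. RBOHD differed by -1.07 ± 0.65 at 8 h and -0.55 ± 0.65 at 6 h, neither called. At 6 h no member was called, where 4.13% of genes were called either way. At an unadjusted p below 0.05 none of the 5 differed at 6 h, and DESeq2's Wald test also called none. At 2 h no member was called either, where 0.206% of genes were. RBOHF differed then by -1.33 ± 0.32 (adjusted p = 0.0307, unadjusted p = 0.000156) and RBOHD by -1.32 ± 0.65 (unadjusted p = 0.0481). DESeq2 called RBOHF at 2 h (-1.36, adjusted p = 0.00805), as did the fit without replicate 2 of MLACC ppsdes (-1.69, adjusted p = 0.00124). RBOHC, RBOHE and RBOHI were not called at any time in edgeR, while DESeq2 called RBOHC at 4 h (-7.65, adjusted p = 0.000964) and 8 h (-7.89, adjusted p = 0.00300). For RBOHC the values were large but so were their errors (-7.43 ± 3.23 at 4 h, -7.86 ± 6.39 at 8 h), since the controls of both backgrounds had almost no reads.

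The MLACC lines were therefore also compared with each other, without their controls, a comparison chosen after the data had been seen. The log2 difference of RBOHC, MLACC ppsdes over MLACC, was -4.10 ± 0.99 at 2 h (adjusted p = 0.00326), -7.02 ± 0.89 at 4 h (adjusted p = 2.52e-08), -5.34 ± 0.84 at 6 h and -8.66 ± 0.99 at 8 h. In reads, 4322 in the wild type faced 44 in ppsdes at 4 h, a ratio per library size of 127 (94.6 to 175), and 7026 faced 18 at 8 h, a ratio of 390 (247 to 659). Each wild-type library lay above each ppsdes library at 4, 6 and 8 h, but not at 2 h. Genes called lower in this comparison made up 3.77%, 17.9%, 7.51% and 15.4% of all genes at 2, 4, 6 and 8 h. All 5 members were called lower in ppsdes at 4 h, RBOHC and RBOHF at 2 h, RBOHC and RBOHI at 6 h, and RBOHC, RBOHD, RBOHF and RBOHI at 8 h. RBOHI differed by -2.54 ± 0.71, -2.90 ± 0.74 and -2.18 ± 0.64 at 4, 6 and 8 h. It had 9, 6 and 14 reads in MLACC ppsdes leaves at these times. RBOHI passed the filter over the 60 libraries but not in ppsdes alone. Its direction in this comparison was therefore in part set by the filter.

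**Figure D4:**
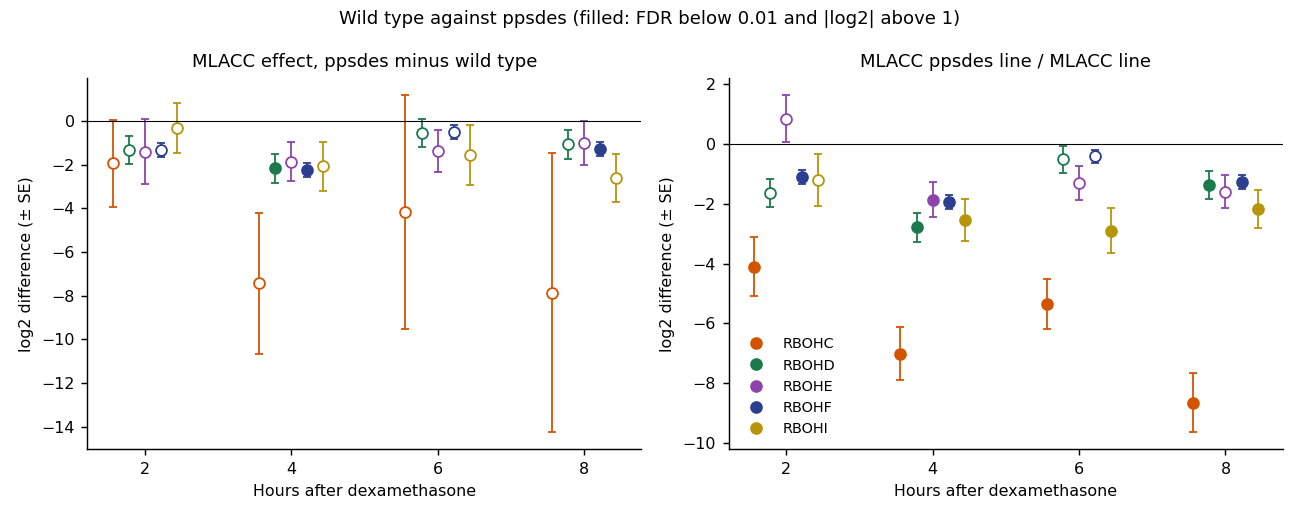
Log2 differences (± SE) between ppsdes and wild type at 2, 4, 6 and 8 h for the 5 tested members: on the left the difference of the MLACC effects, on the right the MLACC ppsdes line over the MLACC line without controls; filled points passed the thresholds. On the left RBOHF at 4 and 8 h and RBOHD at 4 h are filled, and the error bars of RBOHC span several log2 units.

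Control leaves moved over the 8 h as well, after infiltration with dexamethasone but without MLACC. RBOHF drifted down in both controls. In mYFP leaves it went from 27.5, 23.8 and 21.8 CPM at 0 h to 11.9, 12.1 and 10.4 CPM at 8 h (-1.03 ± 0.24, adjusted p = 0.00118), and in the ppsdes control from 25.3, 26.2 and 25.8 to 12.7, 10.7 and 11.03 CPM (-1.15 ± 0.22, adjusted p = 0.000120). Genes called lower at 8 h made up 10.3% and 10.4% of all, and genes called either way 10.6%, 13.1%, 19.9% and 21.9% in mYFP at 2, 4, 6 and 8 h and 13.9%, 18.9% and 20.8% in the ppsdes control at 4, 6 and 8 h. The mYFP value fell to -0.95 and -0.99, short of the fold threshold, without replicate 1 of 0 h or replicate 3 of 8 h.

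RBOHD in the ppsdes control went from 78.3, 110 and 93.8 CPM at 0 h to 27.5, 26.5 and 25.7 CPM at 6 h (-1.83 ± 0.44, adjusted p = 0.00163) and 25.6, 35.8 and 16.2 CPM at 8 h (-1.85 ± 0.44, adjusted p = 0.00134, and -1.60 with adjusted p = 0.0122 without replicate 3 of 8 h). Genes called lower made up 9.40% and 10.4%. At 4 h its change of -1.37 ± 0.43 was not called (adjusted p = 0.0151), though it was without control replicate 2 of 4 h (-1.85, adjusted p = 0.00487). In mYFP leaves RBOHD was not called at any time. Its highest control level was at 2 h, at 156, 212 and 40.9 CPM (1.29 ± 0.48 over 0 h, adjusted p = 0.0432), and without the low replicate 3 this rise was called (1.72, adjusted p = 0.00401). RBOHF at 6 h in mYFP (-0.84 ± 0.24) was called without replicate 2 of 6 h (-1.02, adjusted p = 0.00468). Among mYFP libraries at 2 h RBOHD had an SD of 24.2 RPKM about a mean of 37.8, and RBOHF 0.608 about 4.60.

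The size and make-up of the RBOH pool were followed as well. Summed over all 10 family genes, RBOH transcripts went from 18.8 ± 0.835 RPKM at 0 h to 161 ± 51.2 at 2 h and 220 ± 75.4 at 4 h in MLACC leaves (SD, n = 3), and stood at 78.0 ± 20.4 at 6 h and 136 ± 52.1 at 8 h. In mYFP leaves the sum was 42.7 ± 24.9 RPKM at 2 h and 11.9 ± 2.26 at 8 h. In MLACC ppsdes leaves it stayed between 31.5 and 53.5 RPKM on average, with 48.8 ± 10.98 at 6 h and 40.6 ± 12.5 at 8 h. In the ppsdes control the sum fell from 32.7 ± 4.49 RPKM at 0 h to 11.1 ± 0.285 at 6 h and 10.2 ± 2.70 at 8 h. MLACC ppsdes libraries lay above all ppsdes controls at 4, 6 and 8 h, and overlapped them at 2 h. RBOHD made up 65.0% ± 6.78 of the sum in MLACC leaves at 0 h and 91.5% ± 1.98 at 2 h, and RBOHF went from 34.4% ± 6.73 to 7.89% ± 1.78. In mYFP leaves, without MLACC, RBOHD also went from 70.0% ± 8.00 to 84.97% ± 9.56 and RBOHF from 29.3% ± 7.84 to 14.4% ± 9.63, and the shares of both lines overlapped at 2 h.

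RBOHC became a visible part of the pool in MLACC leaves. Its share was 9.12% ± 4.62 at 4 h, 11.8% ± 2.20 at 6 h and 22.4% ± 5.87 at 8 h, while RBOHD was back at 65.5% ± 4.89. In no other line did the group mean of RBOHC exceed 0.503%. Per length, RBOHC (22.2 ± 14.9 RPKM) and RBOHF (22.3 ± 6.67 RPKM) did not differ beyond their spread in MLACC leaves at 4 h, and RBOHD stood above both at 174 ± 54.2 RPKM. At 8 h the order was RBOHD (88.2 ± 30.2), RBOHC (32.3 ± 18.9) and RBOHF (14.96 ± 3.12), RBOHC being above RBOHF in all 3 libraries, followed by RBOHE (0.581 ± 0.238) and RBOHI (0.295 ± 0.166). The ratio of RBOHD to RBOHF, per length, was 12.1 ± 3.12 in MLACC leaves at 2 h and 7.84 ± 4.46 in mYFP leaves, which overlapped, and 5.84 ± 1.02 and 3.07 ± 0.517 at 8 h, which did not.

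The patterns of the members over the 20 groups were related to different degrees. As a description over group means of log2 CPM, the Pearson correlation was 0.91 between RBOHD and RBOHF, 0.89 between RBOHC and RBOHE and between RBOHC and RBOHI, and lowest between RBOHD and RBOHE (0.53). The groups share lines and times, so these values carry no test. The genes closest to RBOHC among 19928 others were AT5G44990 (0.994), the glucosyltransferase gene UGT73B4 (0.993) and AT1G33030 (0.992), and 1114 genes had a correlation over 0.9 with it. Closest to RBOHD were FC1, encoding a ferrochelatase (0.983), PI4K GAMMA 4 (0.979) and AT1G66090 (0.978), with 368 genes over 0.9. Closest to RBOHF were AT1G67060 (0.973), the arogenate dehydratase gene ADT4 (0.971) and ZCF37 (0.970), with 235 genes over 0.9. For RBOHE they were AT5G50350, AT3G08640 and AT3G58050 (0.972, 0.965 and 0.964), and for RBOHI AT2G34360 (0.954) and the transcription factor genes WRKY45 (0.950) and NAC3 (0.939).

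Transcripts of proteins known to act on RBOH enzymes moved as well. Of 19 activating kinases and partners tested in the wild type, 6 were called higher at 2 h, 13 at 4 h, 13 at 6 h and 11 at 8 h, beside 4.14%, 21.4%, 18.8% and 23.1% of all genes, with 1 called lower at 4 h (the GTPase gene ROP2, -1.09 ± 0.16) and 2 at 8 h (ROP2 and the kinase gene OST1). Their median log2 change was 2.12 at 4 h, beside 0.02 over all genes. The largest called at 4 h were CBL1, a calcium sensor (4.34 ± 0.37), XLG2, an extra-large G protein that stabilises the kinase BIK1 (3.94 ± 0.57), RIPK, a receptor-like cytoplasmic kinase that phosphorylates RBOHD (3.56 ± 0.35), and CPK2, a calcium-dependent kinase (2.68 ± 0.33). In ppsdes 3 were called higher at 4 h (CPK2, CPK4 and XLG2), 9 at 6 h and 7 at 8 h, beside 2.08%, 10.5% and 9.00% of all genes, led at 6 h by XLG2 (3.24 ± 0.56), CPK2 (3.17 ± 0.32), the receptor-associated kinase BIK1 (2.60 ± 0.66) and the receptor kinase CRK2 (2.10 ± 0.56). The background-by-MLACC difference was called for 7 of the 19 at 4 h, all towards a smaller effect in ppsdes, beside 10.6% of all genes.

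Among 6 restraining partners, 2 were called higher at 4 h in the wild type, PBL13, a kinase that phosphorylates RBOHD and limits it (3.94 ± 0.63), and CPK28, which promotes turnover of BIK1 (2.02 ± 0.51). With 21.4% of all genes called higher, 2 of 6 is near the background. In ppsdes CPK28 alone was called at 6 h (2.17 ± 0.49). Of 6 pattern receptors and co-receptors that start an oxidative burst, 5 were called higher at 4 h in the wild type, led by the Pep peptide receptors PEPR2 (4.91 ± 0.44) and PEPR1 (3.61 ± 0.37), the co-receptor BAK1 (2.69 ± 0.31) and the chitin co-receptor CERK1 (2.36 ± 0.32). In ppsdes 4 were called higher at 6 h, BAK1 (2.17 ± 0.37), CERK1 (1.66 ± 0.40), EFR (1.64 ± 0.43) and PEPR1 (1.23 ± 0.30). The medians of the 6 were 2.53 and 1.65, beside 0.02 and -0.02 over all genes, of which 21.4% and 10.5% were called higher. The flagellin receptor gene FLS2 was not called with MLACC at either time and was lower in resting ppsdes than in resting mYFP leaves (-3.85 ± 0.67, adjusted p = 0.000602).

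Cell wall peroxidases are the other known source of apoplastic peroxide. All 4 listed were called higher at 4 h in the wild type, PRX33 (5.26 ± 0.96), PRX34 (3.50 ± 0.45), PER4 (3.20 ± 1.03) and PER71 (2.35 ± 0.68), and 3 in ppsdes at 6 h, PER4 (4.61 ± 1.20), PER71 (3.23 ± 0.75) and PRX34 (1.45 ± 0.39). Of all genes, 21.4% and 10.5% were called higher in these comparisons. PRX33 and PRX34 are near-identical neighbours whose reads may not be told apart. The ferric reductases, flavocytochrome relatives of RBOH that reduce iron, with a call were all lower, namely FRO4 (-3.15 ± 0.61), FRO2 (-2.95 ± 0.60) and FRO8 (-1.80 ± 0.39) out of 6 tested at 4 h in the wild type, where 17.6% of all genes were called lower, and FRO6 (-1.69 ± 0.41) out of 6 at 6 h in ppsdes, where 4.13% were. FRO1 and FRO5 did not pass the filter.

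Transcripts known to respond to hydrogen peroxide were also counted. At 4 h in the wild type 5 of 6 were called higher, beside 21.4% of all genes, with a median of 4.93, beside 0.02 over all genes, including the transcription factor genes ERF109 (9.35 ± 1.45), ZAT12 (6.01 ± 0.88) and ZAT10 (3.86 ± 0.90) and the kinase gene OXI1 (6.52 ± 0.85). In ppsdes 1 of 5 was called at 4 h and 3 of 5 at 6 h, where 2.08% and 10.5% of all genes were called higher, the latter being ZAT12 (6.78 ± 0.89), OXI1 (5.33 ± 1.08) and ZAT10 (4.198 ± 1.06), ERF109 having too few reads to be tested. The difference between backgrounds was called for 2 of the 6 at 4 h, both towards a smaller effect in ppsdes, as were 10.6% of all genes. Hydrogen peroxide itself was not measured in these files.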

How the data were processed

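Poly(A) RNA of 60 leaf libraries was sequenced without strand information. Per the labels and the study's methods, the authors aligned reads to TAIR10 with TopHat2 2.0.10 after FastQC 0.11.2 and counted them per gene with HTSeq. The gene models and HTSeq options were not given in the sources used here. Raw counts were deposited for 32678 genes in 2 tables of 30 libraries, 1 per background. The 5 summary lines that name no gene were left out of library sizes. They held, as a percentage of all counts in a library with these lines included, 1.24% to 2.26% for no feature, 0.362% to 0.671% for ambiguous and 6.46% to 14.2% for not unique.

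Groups came from the labels. Replicates are biological replicates per the labels, and no pair of libraries was a duplicate (lowest chi-square per gene 10.0). Counts were scaled by TMM and tested with edgeR 4.0.16 (R 4.3.3, limma 3.58.1), quasi-likelihood F test, after a low-count filter with a minimum count of 10, with Benjamini-Hochberg adjustment over all genes tested. MLACC effects and time courses were fitted within a table, and comparisons between backgrounds over the 60 libraries. The standard error is the absolute log2 fold change divided by the square root of F. CPM used TMM over all 60 libraries, and RPKM divided it by the summed exon length in TAIR10.1. A floor of 3 counts was 0.116 to 0.213 CPM per library. Intervals of count ratios are exact at 95% and cover counting error only. Positions, upstream windows and protein identities came from TAIR10.1 (Biopython 1.88).

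The 8 genes, the gene lists and the tests were chosen with earlier results of these data known. The text names the 8 genes, the 4 called genes of each list with the largest change at 4 h in the wild type and at 6 h in ppsdes, and the 3 genes closest to each tested member. FLS2, AT1G19240, ROP2, OST1 and CPK4 lie outside that rule and were chosen after their values were seen. The other genes overlapping members, the cell type markers and the genes mutated in ppsdes also lie outside it. The alternatives were DESeq2 1.42.0, DESeq2 size factors in edgeR, no low-count filter, a replicate block, only the 6 libraries compared, subtraction of the difference at 0 h, libraries nearest another time left out, and each library left out in turn.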

Additional observations from a re-analysis of the deposited data

Results flagged for a closer look

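The effect of MLACC differed between ppsdes and the wild type, by the test of that difference, for RBOHD at 4 h (log2 difference -2.17) and for RBOHF at 4 h (-2.22) and 8 h (-1.28). In each case the effect was smaller in ppsdes. For RBOHD at 4 h the call was lost without any one of 7 of the 12 libraries, and for RBOHF it held at both times. The study found less MLACC protein in the mutant. Background, count table, separate insertions of the transgene and the presence of a transgene in the control cannot be told apart from the mutations.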

How the results depend on the processing

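No result changed direction among called values. Of 382 counts of called members under an alternative, 333 stayed within 1.5 times the main count. These 333 include comparisons in which no member was called in the main fit or under the alternative. Of 1743 values of single genes, 1587 kept their direction and their side of the threshold. Another 67 lost a call, 26 gained one and 63, never called, changed sign. DESeq2 size factors in edgeR left 133 of 133 gene values as they were and shifted RBOHD and RBOHF by at most 0.068 on the log2 scale.

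Members called with MLACC in the wild type numbered 2, 4, 4 and 5 at 2, 4, 6 and 8 h, and 0, 2, 2 and 3 after subtraction of the difference at 0 h, which ended every call of RBOHC. In ppsdes the 3 and 2 called at 6 and 8 h became 1 and 0, a subtraction that also adds the error of 0 h. At 2 h in the wild type, 1 was called without the libraries nearest another time and 0 with only the 6 libraries compared. For the difference between backgrounds, DESeq2 called 1 at 2 h and 2 at 8 h in place of 0 and 1, and the MLACC lines without their controls, a comparison chosen after seeing the data, gave 2, 5, 2 and 4 in place of 0, 2, 0 and 1. DESeq2 called 1 member in the ppsdes control at 4 h in place of 0 (RBOHD, -1.39, adjusted p = 0.00432). Without the low-count filter, the change of the effect from 2 to 4 h was called for 1 member in place of 2 (RBOHF lost its call at 1.24, adjusted p = 0.0111). The cause was not tested.

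With 1 library left out, the counts in the wild type ranged from 1 to 2, 3 to 5, 3 to 5 and 4 to 5 at 2, 4, 6 and 8 h, and in ppsdes from 1 to 3 at 6 h and 1 to 2 at 8 h. The difference between backgrounds gave 0 to 1 at 2 h and 1 to 2 at 4 h. The change from 2 to 4 h gave 0 to 2 and that from 4 to 6 h 0 to 1. The mYFP course gave 0 to 1 at 2, 6 and 8 h, and the ppsdes control 0 to 1 at 4 h and 1 to 2 at 8 h.

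Replicate numbers were not taken to pair the libraries, since not every correlation exceeded 0.1: 10 of 15 correlations of same-numbered deviations in the wild type and 11 of 15 in ppsdes exceeded 0.1 (lowest -0.242 and -0.187), and 11 and 10 of 15 were best with their own number. All 3 exceeded 0.1 in the wild type at 0 h and in ppsdes at 6 and 8 h, where the replicate block changed no call of a member. With the replicate block 1 member in place of 2 was called at 2 h in the wild type (RBOHD 2.01, adjusted p = 0.0118), 1 in place of 0 in mYFP at 2 h (RBOHE -3.46, adjusted p = 0.00885) and 1 in place of 0 in the ppsdes control at 4 h (RBOHD -1.43, adjusted p = 0.00508), and RBOHI was called at 6 h (2.02, adjusted p = 0.00984).

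Depth limits RBOHA, RBOHB and RBOHG, which could not be tested, and RBOHE and RBOHI, with at most 59 and 32 reads in a library.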
